A study of Mus with 21 samples.

Results

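The genes described here are the 37 genes carried by mouse mitochondrial DNA (mtDNA), chosen as every gene of the deposited count table whose symbol starts with mt-, out of 55335 genes in all. They comprise 13 protein genes, 2 rRNA genes and 22 tRNA genes. The data are raw read counts from 21 libraries of poly(A) RNA, each from the whole brain of a female embryo at E17.5 on a C57BL/6J background. The groups were 5 WT libraries (Wapl +/+; Nipbl +/+), 3 Nipbl +/- libraries (Wapl +/+; Nipbl +/delta), 7 Wapl Δ/+ libraries (Wapl delta/+ or +/delta; Nipbl +/+) and 6 double heterozygotes that carry both deletions. Nipbl encodes a loader of the cohesin complex and Wapl encodes its release factor. The Wapl deletion lacks the promoter and the first exons, and was made in earlier generations with an E2a-Cre transgene. The Nipbl deletion came from sires that carried Stra8-icre, a Cre recombinase expressed in male germ cells before meiosis.

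The genotype labels write the Wapl deletion either before or after the slash. It stands first in replicates 1 and 2 of the Wapl Δ/+ group and replicates 1 to 4 of the double heterozygotes, and second in Wapl Δ/+ replicates 3 to 7 and in replicates 5 and 6 of the double heterozygotes. The labels do not say what the order means, and they name neither litters nor the cross of a library. In one of the study's crosses the deleted Wapl allele came from the dam, and in the other it came from the sire.

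Mammalian mtDNA is a small circle inherited from the mother. Both of its strands are transcribed as long RNAs that cover many genes, and the tRNAs that lie between the other genes are cut out to free them. The protein genes encode core subunits of respiratory chain complexes I, III and IV and of the ATP synthase, the rRNAs build the mitochondrial ribosome, and the tRNAs decode its messages. Nuclear genes encode all other subunits and the proteins that copy, transcribe and process mtDNA. Most mitochondrial mRNAs carry a short poly(A) tail, and brain tissue depends on the ATP these complexes make.

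The libraries held 25682566 to 35818767 counts on genes, with a median of 31830396. Values are given as counts or as CPM, counts scaled by TMM-adjusted library size. Each deleted gene was lower in every library that carried its deletion. Wapl stood at 18.95 to 24.7 CPM in the Wapl Δ/+ and double-heterozygote libraries and at 42.4 to 49.7 CPM in the WT and Nipbl +/- libraries, and Nipbl stood at 35.5 to 40.9 CPM in Nipbl +/- libraries and double heterozygotes and at 62.4 to 74.3 CPM in the others. Summed over 5 neuronal markers, the level was between 4789 and 5529 CPM per library, and no marker of the 10 cell type lists examined was at 0 in any library. Summed markers of skeletal muscle, a tissue outside the brain, ran from 6.22 to 68.3 CPM, and their part in the results was not tested. No 2 libraries of a group were identical within counting noise. Replicates are separate samples in the labels, which do not state litters.

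The 37 genes together held 1.47% to 1.72% of the counts of a library. Protein genes held 1.37% to 1.599%, rRNA genes 0.0671% to 0.103% and tRNA genes 0.0114% to 0.0157%. By group, the share of the protein genes was 1.54% ± 0.0457 (SD, n = 5) in WT, 1.44% ± 0.0598 (SD, n = 3) in Nipbl +/-, 1.53% ± 0.0691 (SD, n = 7) in Wapl Δ/+ and 1.52% ± 0.0712 (SD, n = 6) in double heterozygotes. The 3 Nipbl +/- libraries stood at 1.46%, 1.487% and 1.37%, below the lowest WT library at 1.495%. The Wapl Δ/+ libraries (1.38% to 1.58%) and double heterozygotes (1.42% to 1.599%) overlapped both. These shares are of raw counts, without TMM scaling. With that scaling, the Nipbl +/- and WT libraries overlapped at mt-Co1 and mt-Cytb, the most abundant members. Of all tested genes, 14.7% had no overlap between these groups.

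Levels between genes were compared as mean CPM per kb of gene over the 21 libraries, with coordinates from RefSeq for GRCm38.p6, in which all 37 genes were found. mt-Co1, the catalytic core of complex IV, was highest at 3463 CPM per kb, followed by mt-Cytb, the complex III subunit, at 3181 CPM per kb. These 2 genes held 54.5% to 57.0% of all counts on mitochondrially encoded genes. mt-Nd1, a complex I subunit, followed at 2091 CPM per kb and mt-Nd2 at 1181 CPM per kb. Among the tRNA genes mt-Te was highest (708 CPM per kb) and mt-Tk lowest, with 1 count in 21 libraries. mt-Rnr1 stood at 369 CPM per kb and mt-Rnr2 at 297 CPM per kb. The ribosomal RNAs are the most abundant mitochondrial transcripts in a cell, but selection for poly(A) lowers their part in such libraries.

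Levels of the abundant members varied little between libraries. mt-Co1 ran from 4843 to 5710 CPM (median 5481) over the Wapl Δ/+ libraries and from 4925 to 5645 CPM (median 5431) over double heterozygotes, and mt-Cytb from 3410 to 3772 CPM (median 3691) and from 3374 to 3839 CPM (median 3624). The rRNA genes varied more. mt-Rnr1 had 343, 374, 339, 400 and 369 CPM in WT and 307, 355 and 367 CPM in Nipbl +/- libraries, and ran from 316 to 375 CPM (median 331) in Wapl Δ/+ libraries and from 279 to 460 CPM (median 356) in double heterozygotes. mt-Rnr2 had 479, 475, 424, 516 and 494 CPM in WT and 430, 461 and 466 CPM in Nipbl +/- libraries, and ran from 430 to 485 CPM (median 470) and from 387 to 560 CPM (median 488) in the other groups. The double heterozygotes thus had both the lowest and the highest library for each rRNA gene, and all 4 groups overlapped. mt-Te, the tRNA for glutamate, had 53.8, 44.9, 44.4, 55.1 and 50.7 CPM in WT and 41.4, 52.0 and 42.7 CPM in Nipbl +/- libraries, and ran from 41.2 to 55.8 CPM in Wapl Δ/+ libraries and from 47.0 to 52.1 CPM in double heterozygotes, so that all groups overlapped. mt-Nd4l, the protein gene with the lowest level per kb, had 16, 6, 3, 22 and 11 counts in WT and 8, 11 and 8 in Nipbl +/- libraries, and ran from 7 to 17 counts in Wapl Δ/+ libraries and from 5 to 16 in double heterozygotes.

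Members of 1 contiguous stretch of mtDNA, from mt-Ts1 (chromosome MT, 6870 to 6938) to mt-Nd4l (9877 to 10173), had almost no counts. It holds 11 members, 6 protein genes and 5 tRNA genes, among them the genes of complex IV subunits mt-Co2 and mt-Co3 and of ATP synthase subunits mt-Atp6 and mt-Atp8. The 6 protein genes inside it stood at 1.26 to 3.21 CPM per kb (median 1.79), and the 7 outside it at 743 to 3463 CPM per kb (median 1181). At the left edge, mt-Co1 stood 2276 times as high per kb as mt-Co2, and at the right edge mt-Nd4 stood 686 times as high as mt-Nd4l, a gene it overlaps by a few bases. The stretch held 0.0250% to 0.0731% of the counts on the 37 genes, although it covers 21.5% of the length of their protein and rRNA genes. mt-Co2, for example, had between 23 and 44 counts per library, mt-Atp6 between 26 and 61 and mt-Co3 between 22 and 66.

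**Figure D1:**
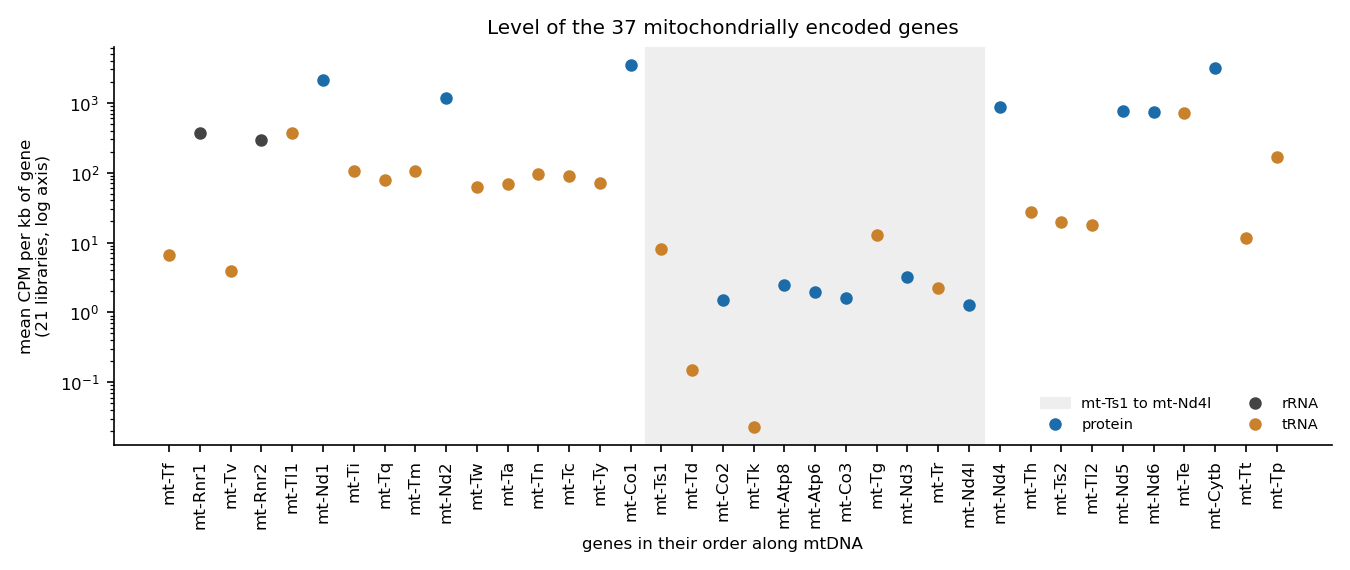
Mean CPM per kb of gene over 21 libraries (log axis) for the 37 mitochondrially encoded genes in their order along mtDNA, coloured by class. The grey band marks mt-Ts1 to mt-Nd4l, where the 6 protein genes lie between 1.26 and 3.21 CPM per kb, against 743 to 3463 for the 7 outside it.

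A nuclear copy of part of mtDNA lies on mouse chromosome 1, and 7 pseudogenes listed as nuclear copies of mitochondrial sequence were counted in the table. RefSeq coordinates were found for only 2 of the 7, and the place of the others was not checked. Gm10222 (chromosome 1, 24612404 to 24612700, GRCm38.p6) is 297 bases long, as is mt-Nd4l, and Gm10925 (24613971 to 24614651) is 681 bases long, as is mt-Atp6, which RefSeq lists among its synonyms. The 2 pseudogenes are separated by 1270 bases, and mt-Atp6 and mt-Nd4l by 1269 bases on mtDNA. In the mtDNA interval, mt-Tg, mt-Nd3 and mt-Tr lie after mt-Co3. Gm10222 had 12 to 37 counts per library and Gm10925 54 to 128, where mt-Nd4l had 3 to 22 and mt-Atp6 26 to 61. How the authors treated reads that map to several places is not given in the sources used here, and its part in the low counts was not tested.

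The libraries fell into 2 sets by 3 neighbouring members, mt-Tg (tRNA for glycine, 9391 to 9458), mt-Nd3 (a complex I subunit, 9459 to 9806) and mt-Tr (tRNA for arginine, 9808 to 9875). mt-Nd3 had 3, 6, 1, 83 and 75 counts in WT replicates 1 to 5, and 4, 3 and 1 counts in Nipbl +/- replicates 1 to 3. In Wapl Δ/+ replicates 1 to 7 it had 0, 3, 98, 70, 52, 106 and 64 counts, and in double-heterozygote replicates 1 to 6 it had 3, 4, 3, 2, 96 and 68. High counts were thus found in 2 of 5 WT, 5 of 7 Wapl Δ/+, 2 of 6 double-heterozygote and 0 of 3 Nipbl +/- libraries, and the other 12 libraries were low. mt-Tg had 64 and 54 counts in WT replicates 4 and 5, 84, 61, 37, 94 and 55 in Wapl Δ/+ replicates 3 to 7 and 85 and 55 in double-heterozygote replicates 5 and 6, and 0 in each of the other 12 libraries, where a count of 0 allows up to 0.0832 to 0.104 CPM. mt-Tr had 13 and 14 counts in WT replicates 4 and 5, 12, 7, 11, 10 and 7 in Wapl Δ/+ replicates 3 to 7 and 8 and 10 in double-heterozygote replicates 5 and 6, and between 0 and 3 in the other 12 libraries. The sets were split at 20 counts of mt-Nd3, which fixes their separation at that gene. They did not overlap at mt-Tg or mt-Tr either. mt-Tr, at most 14 counts, carried the least information.

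Gm28438, a pseudogene that the table lists between Gm10222 and Gm10925, ran the opposite way. It had between 2 and 13 counts in the 9 libraries high in mt-Nd3 and between 59 and 144 in the 12 low ones. The other 6 pseudogenes overlapped between the sets. In the high and the low libraries, Gm10925 had 54 to 128 and 76 to 120 counts, Gm28437 58 to 137 and 88 to 138, and Gm28661 70 to 113 and 68 to 122. Gm29216 had 45 to 82 and 45 to 87 counts, Gm28439 33 to 58 and 26 to 64, and Gm10222 12 to 32 and 18 to 37.

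Among the 13 libraries with a Wapl deletion, the sets followed the order of the alleles in the label in 13 of 13. The comparison of the 7 libraries with the deletion second against the 6 with it first, with Nipbl genotype as covariate, called 3 members, all higher, where 0.167% of the 30552 tested genes were called and 0.0426% were called higher. The sets had been seen in earlier results of these data, so these 3 tests are no independent support for them. mt-Nd3 had 554 counts in 7 libraries with the deletion second and 15 counts in the 6 with it first, a ratio of 31.3 after scaling to library size (95% counting interval 18.8 to 56.3; fitted log2 fold change 4.93, SE 0.275, adjusted p = 6.27e-09 by edgeR's quasi-likelihood test). mt-Tg had 471 counts against 0, which is at least 133-fold higher when the 6 libraries at 0 are set to a floor of 3 counts over the group (adjusted p = 6.61e-07 by edgeR). mt-Tr had 65 counts against 2, a ratio of 27.6 (counting interval 7.33 to 232; adjusted p = 0.00158 by edgeR). These 3 were the only members whose groups did not overlap, against 0.393% of all tested genes. Gm28438 fell by 3.14 on the log2 scale (SE 0.279, adjusted p = 7.09e-06 by edgeR), the only 1 of the 7 pseudogenes called. The intervals cover counting error only.

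**Figure D2:**
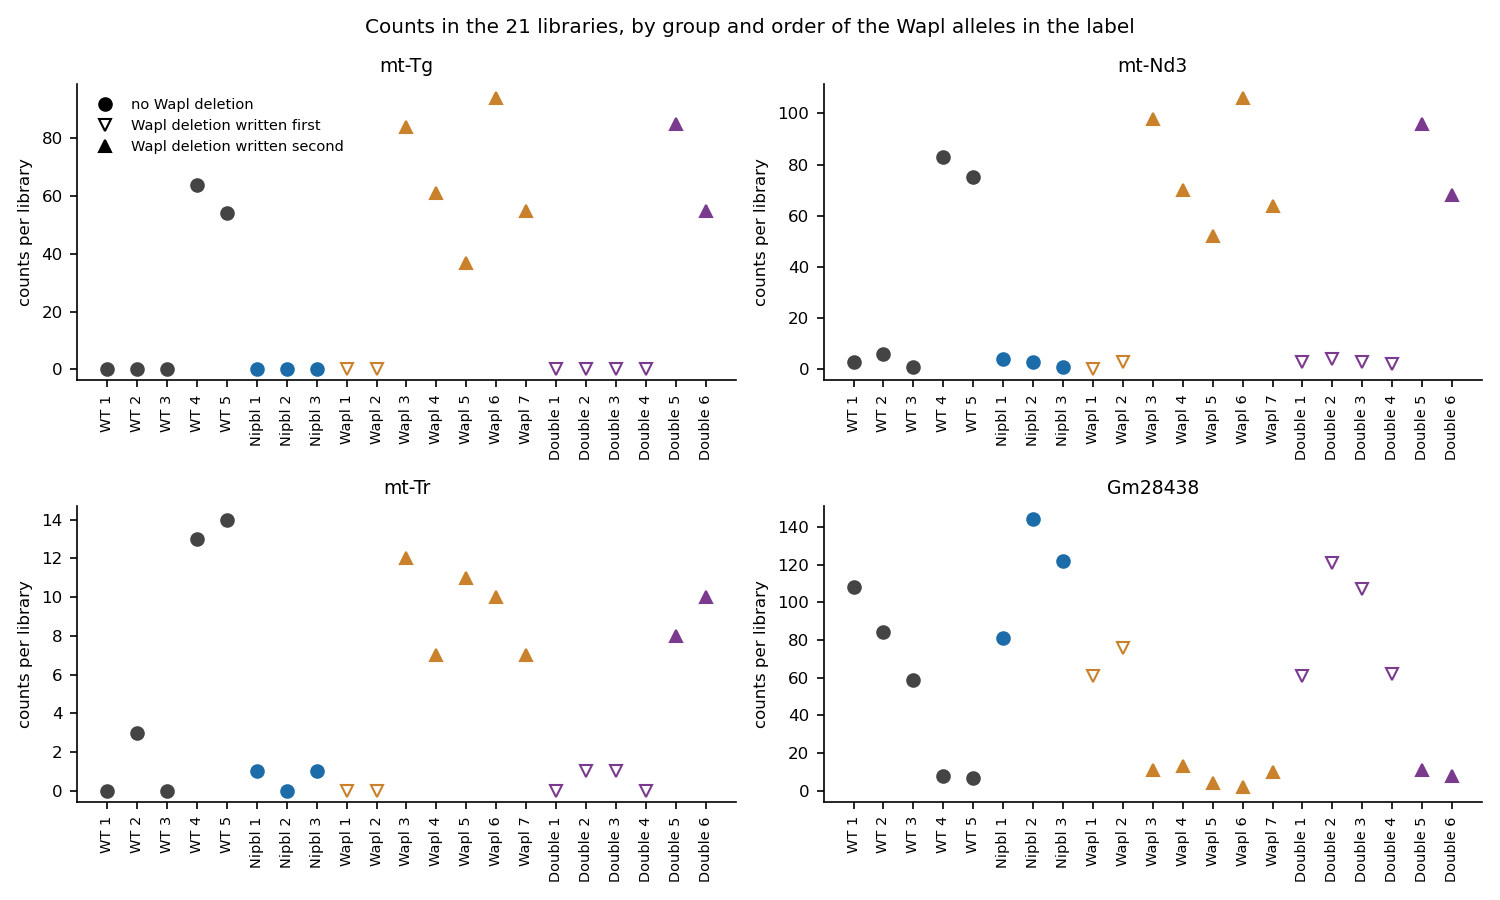
Counts of mt-Tg, mt-Nd3, mt-Tr and the pseudogene Gm28438 in each of 21 libraries, grouped by genotype. Marker shape gives the place of the Wapl deletion in the label, and filled upward triangles (deletion second) sit high in the 3 mitochondrial genes and low in Gm28438, with 52 to 106 counts of mt-Nd3 against 0 to 4 in the open triangles (deletion first).

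None of the other tested members passed the test for allele order. The 9 members with more than 100 CPM, which are the rRNA genes mt-Rnr1 and mt-Rnr2 and the protein genes mt-Nd1, mt-Nd2, mt-Co1, mt-Nd4, mt-Nd5, mt-Nd6 and mt-Cytb, had log2 differences between -0.04 and 0.14 between the orders. Their 95% intervals spanned -0.13 to 0.33. Of the 80 nuclear genes for subunits of the same complexes, 0 were called for allele order, where 0.167% of all tested genes were. Their median log2 difference was 0.05 against 0.00 for all tested genes, and 73 of the 80 had a higher fitted level with the deletion second.

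In Nipbl +/- brains, the comparison with WT called 9 members, 7 lower and 2 higher, of the 35 tested. Over all tested genes 11.2% were called, 6.96% lower and 4.25% higher. All 13 protein genes had a lower fitted level in Nipbl +/- brains (5 called), both rRNA genes had a lower one (0 called), and of the 20 tested tRNA genes 14 had a higher one (2 called higher and 2 lower). The median log2 fold change was -0.16 for protein genes and 0.04 for tRNA genes, against -0.01 for all genes. Of the 13 protein genes, 6 lie in the stretch with almost no counts, mt-Nd3 among them. The 9 members above 100 CPM all had a lower fitted level in Nipbl +/- brains, with 4 called. Their log2 fold changes lay between -0.18 and -0.06, with a median of -0.12. The 2 members that were not tested, mt-Td (7 counts in all) and mt-Tk (1 count), did not pass the filter on low counts.

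Of the 5 protein genes called, 4 are abundant genes of complex I, which takes electrons from NADH. mt-Nd1 had 2088, 1994, 1995, 2089 and 2012 CPM in the 5 WT libraries and 1943, 1957 and 1816 CPM in the 3 Nipbl +/- libraries, so that all Nipbl +/- libraries lay below all WT libraries. Groups did not overlap at 4 of the 35 tested members in this comparison (11.4%; mt-Nd1, mt-Nd4, mt-Tl2 and mt-Tp), where 14.7% of all tested genes had no overlap. The level of mt-Nd1 fell by 8.33% (95% interval of the change -13.4% to -2.99%, adjusted p = 0.0557 by edgeR). mt-Nd4 had 1242, 1181, 1206, 1239 and 1189 CPM in WT and 1150, 1167 and 1105 CPM in Nipbl +/- libraries, again with no overlap, and fell by 7.81% (interval -12.7% to -2.69%, adjusted p = 0.0616 by edgeR).

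mt-Nd2 had 1277, 1216, 1217, 1292 and 1244 CPM in WT and 1179, 1225 and 1089 CPM in Nipbl +/- libraries, where the highest Nipbl +/- library lay within the WT range (fell by 8.73%, adjusted p = 0.0630 by edgeR). mt-Nd5 had 1499, 1315, 1275, 1585 and 1356 CPM in WT and 1216, 1357 and 1228 CPM in Nipbl +/- libraries, again with 1 library inside the WT range (fell by 11.7%, adjusted p = 0.0878 by edgeR). The 2 most abundant members did not pass in edgeR: mt-Co1 had 5552, 5320, 5239, 5542 and 5363 CPM in WT and 5238, 5312 and 4844 CPM in Nipbl +/- libraries (log2 fold change -0.10, adjusted p = 0.138 by edgeR; called by DESeq2 and without Nipbl +/- replicate 2), and mt-Cytb, with 3550 to 3767 CPM in WT and 3460 to 3651 CPM in Nipbl +/- libraries, had a log2 fold change of -0.06 (interval -0.14 to 0.02, adjusted p = 0.426). Both rRNA genes had values on the same side, mt-Rnr1 with a log2 fold change of -0.12 (adjusted p = 0.266) and mt-Rnr2 with -0.11 (adjusted p = 0.250 by edgeR).

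The calls on these 4 complex I genes were lost in 9 to 11 of 17 alternatives each, a threshold of 0.05 among them. None of the 4 passed without WT replicate 1, WT replicate 4 or Nipbl +/- replicate 3, only mt-Nd4 passed without WT replicate 5 and only mt-Nd1 without Nipbl +/- replicate 1. None passed when only libraries low in mt-Nd3 were compared, with log2 fold changes between -0.14 and -0.12. The direction was lower in each of these fits.

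The fifth protein gene called, mt-Nd3, and the tRNA gene mt-Tg were called lower in Nipbl +/- brains (adjusted p = 0.0814 and 0.0928 by edgeR). WT stood 11.96 times as high for mt-Nd3 (95% counting interval 5.93 to 28.2) and at least 22.4-fold higher for mt-Tg, with the same floor of 3 counts over the group. The counts behind these calls are those of the 2 sets: WT replicates 4 and 5 belong to the high set and all 3 Nipbl +/- libraries to the low one. WT replicates 1 to 3 had 3, 6 and 1 counts of mt-Nd3 against 4, 3 and 1 in the Nipbl +/- libraries, and both were at 0 for mt-Tg. Leaving out WT replicate 4 gave an adjusted p of 0.181 for mt-Nd3, and leaving out WT replicate 5 gave 0.184. Both calls were also lost without any 1 of the 3 Nipbl +/- libraries. Here DESeq2, which called 8 members, and filterByExpr, which called 7, gave neither gene an adjusted p. In the study's own DESeq2 analysis mt-Nd3 was a gene changed in Nipbl +/- brains, and it was classed as rescued in double heterozygotes.

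mt-Tp, the light-strand tRNA for proline (15356 to 15422), had the smallest adjusted p among the members lower in Nipbl +/- brains. It had 12.6, 12.4, 11.3, 11.3 and 11.6 CPM in WT and 9.26, 9.93 and 7.55 CPM in Nipbl +/- libraries, with no overlap (14.7% of all tested genes had none). Its log2 fold change was -0.44 (SE 0.0852, interval -0.62 to -0.26, adjusted p = 0.00344 by edgeR), and the call was kept in 17 of 17 alternatives. In double heterozygotes mt-Tp had 11.4, 11.9, 11.5, 12.1, 14.0 and 11.9 CPM, all above the 3 Nipbl +/- libraries and within or above the WT range. The direct comparison of double heterozygotes with Nipbl +/- brains gave a log2 difference of 0.46 (interval 0.26 to 0.66), with an unadjusted p of 0.000181 and an adjusted p of 0.971 by edgeR, so it was not called. mt-Tp was the only 1 of 35 members whose groups did not overlap there, against 2.34% of all tested genes. In Wapl Δ/+ brains it had 8.21 to 12.1 CPM (log2 fold change against WT -0.16, adjusted p = 0.308 by edgeR).

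2 tRNA genes were called higher in Nipbl +/- brains, and both lie in the cluster of mt-Th, mt-Ts2 and mt-Tl2 between mt-Nd4 and mt-Nd5 (11546 to 11741). They carry histidine, serine and leucine. mt-Tl2 had 0.721, 1.23, 0.811, 1.39 and 0.851 CPM in WT and 1.66, 3.15 and 2.22 CPM in Nipbl +/- libraries, with no overlap (log2 fold change 1.21, SE 0.223, adjusted p = 0.00243 by edgeR), and it kept the call in 17 of 17 alternatives. mt-Ts2 had 0.749, 1.36, 0.904, 1.29 and 1.04 CPM in WT and 1.09, 3.25 and 1.85 CPM in Nipbl +/- libraries, which overlap. Its log2 fold change was 0.93 (SE 0.270, adjusted p = 0.0411 by edgeR), and it fell to 0.43 (adjusted p = 0.335) without Nipbl +/- replicate 2. mt-Th was not called (log2 fold change 0.60, adjusted p = 0.155 by edgeR).

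The libraries at both ends of the range were the same for these 3 genes. Each was highest in Nipbl +/- replicate 2, second in double-heterozygote replicate 2 and lowest in Wapl Δ/+ replicate 1 of 21 libraries. Between the ends the order differed, and double-heterozygote replicate 3, for example, ranked 8 for mt-Th, 16 for mt-Ts2 and 10 for mt-Tl2. mt-Th spanned 10.4-fold between its highest and lowest library, mt-Ts2 14.2-fold and mt-Tl2 7.45-fold, where mt-Co1 spanned 1.18-fold. Their counts are small, 130, 104 and 101 in Nipbl +/- replicate 2 and 12, 7 and 13 in Wapl Δ/+ replicate 1, and the tRNA genes are shorter than the 101-base reads, so that a read on one can also cover its neighbour. In double heterozygotes mt-Tl2 had 0.648, 2.88, 0.878, 0.827, 0.570 and 0.874 CPM, with replicate 2 alone above the lowest Nipbl +/- library. In Wapl Δ/+ libraries mt-Tl2 ran from 0.423 to 2.22 CPM (median 0.817), with replicate 3 alone above the lowest Nipbl +/- library. mt-Ts2 ran from 0.228 to 1.77 CPM in Wapl Δ/+ libraries and from 0.360 to 2.60 CPM in double heterozygotes.

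**Figure D3:**
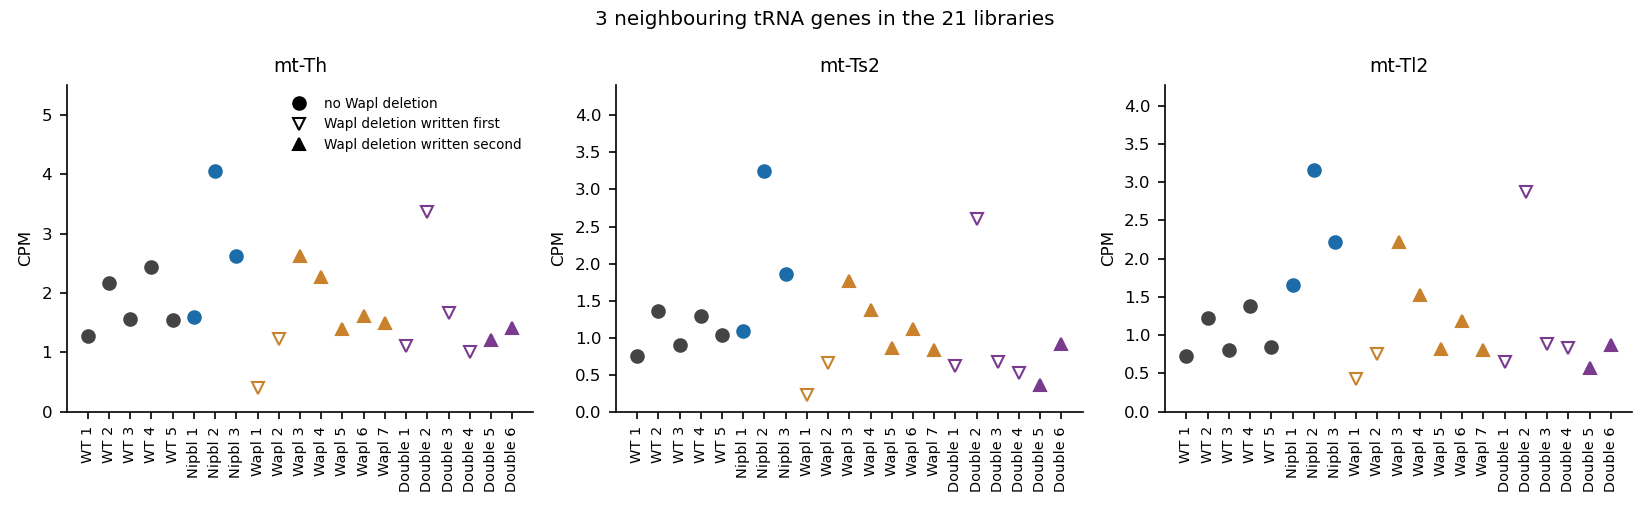
CPM of mt-Th, mt-Ts2 and mt-Tl2 in each of 21 libraries, coloured by group, with marker shape for whether the label writes the Wapl deletion first or second. The 3 genes share their highest library, Nipbl replicate 2, their second, Double replicate 2, and their lowest, Wapl replicate 1.

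In Nipbl +/- brains markers of several cell types also moved. Of 4 astrocyte markers 3 were called lower, with a summed level of 273 to 351 CPM against 380 to 411 CPM in WT. Of 3 microglial markers 3 were called lower (39.8 to 45.0 CPM against 47.8 to 58.2 CPM), as were 2 of 3 oligodendrocyte lineage markers (74.7 to 95.7 CPM against 109 to 120 CPM). Of 5 progenitor markers 3 were called higher (267 to 350 CPM against 257 to 276 CPM). Their part in the lower mitochondrial genes was not tested, and in whole brain fewer cells of a type and less RNA per cell cannot be told apart.

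In Wapl Δ/+ brains 0 of 35 members were called against WT by edgeR, where 2.22% of all genes were, and 7 members had an unadjusted p under 0.05, where 15.6% of all tested genes did (DESeq2 called 1 member, mt-Tm). The 9 members above 100 CPM had log2 fold changes between -0.11 and 0.03, with 95% intervals spanning -0.21 to 0.14. Of the tRNA genes 15 of 20 had a higher fitted level, with a median log2 fold change of 0.20, and the smallest adjusted p was 0.179, for mt-Tm (0.28) and mt-Ty (0.26). Comparison with only the 2 Wapl Δ/+ libraries whose deletion is written first called mt-Rnr1, mt-Th and mt-Ts2. Wapl Δ/+ replicate 1, which is 1 of these 2, was the lowest of 21 libraries for mt-Th and mt-Ts2. With only the 5 whose deletion is written second, 0 members were called. Leaving out WT replicate 1 called mt-Tc.

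In double heterozygotes 2 members were called against WT, both higher, where 3.28% of all genes were called and 0.812% were called higher. They are mt-Tc and mt-Ty, light-strand tRNA genes for cysteine and tyrosine that lie next to each other (5192 to 5326). mt-Tc had 6.85, 4.23, 4.21, 4.78 and 4.41 CPM in WT and 7.38, 6.41, 5.84, 6.24, 7.08 and 6.19 CPM in double heterozygotes. WT replicate 1 stood above 4 of the 6 double heterozygotes, and the other 4 WT libraries stood below all of them. Its log2 fold change was 0.40 (SE 0.115, adjusted p = 0.0842 by edgeR). mt-Ty had 5.19, 3.49, 3.62, 4.04 and 4.28 CPM in WT and 5.86, 5.03, 5.30, 5.10, 5.31 and 4.91 CPM in double heterozygotes, with WT replicate 1 above 3 of them (log2 fold change 0.34, SE 0.0989, adjusted p = 0.0900 by edgeR). Each call was lost in 12 of 22 alternatives, a threshold of 0.05 among them, and neither gene passed without WT replicate 2, 3, 4 or 5 or without double-heterozygote replicate 1, 2, 4 or 6, nor mt-Ty without replicate 3. mt-Tn, which lies beside mt-Tc, had a log2 fold change of 0.33 (adjusted p = 0.213). The kit does not mark strand, so reads from light-strand genes cannot be told apart from RNA of the opposite strand. The 9 members above 100 CPM had log2 fold changes between -0.04 and 0.00. Cell type markers moved in double heterozygotes too: 3 of 4 astrocyte markers were called lower (282 to 371 CPM in sum against 380 to 411 CPM in WT), as were 3 of 3 of the oligodendrocyte lineage (78.2 to 99.3 CPM against 109 to 120 CPM) and 1 of 3 of microglia (42.7 to 48.2 CPM against 47.8 to 58.2 CPM). Their part in the higher tRNA genes was not tested.

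**Figure D4:**
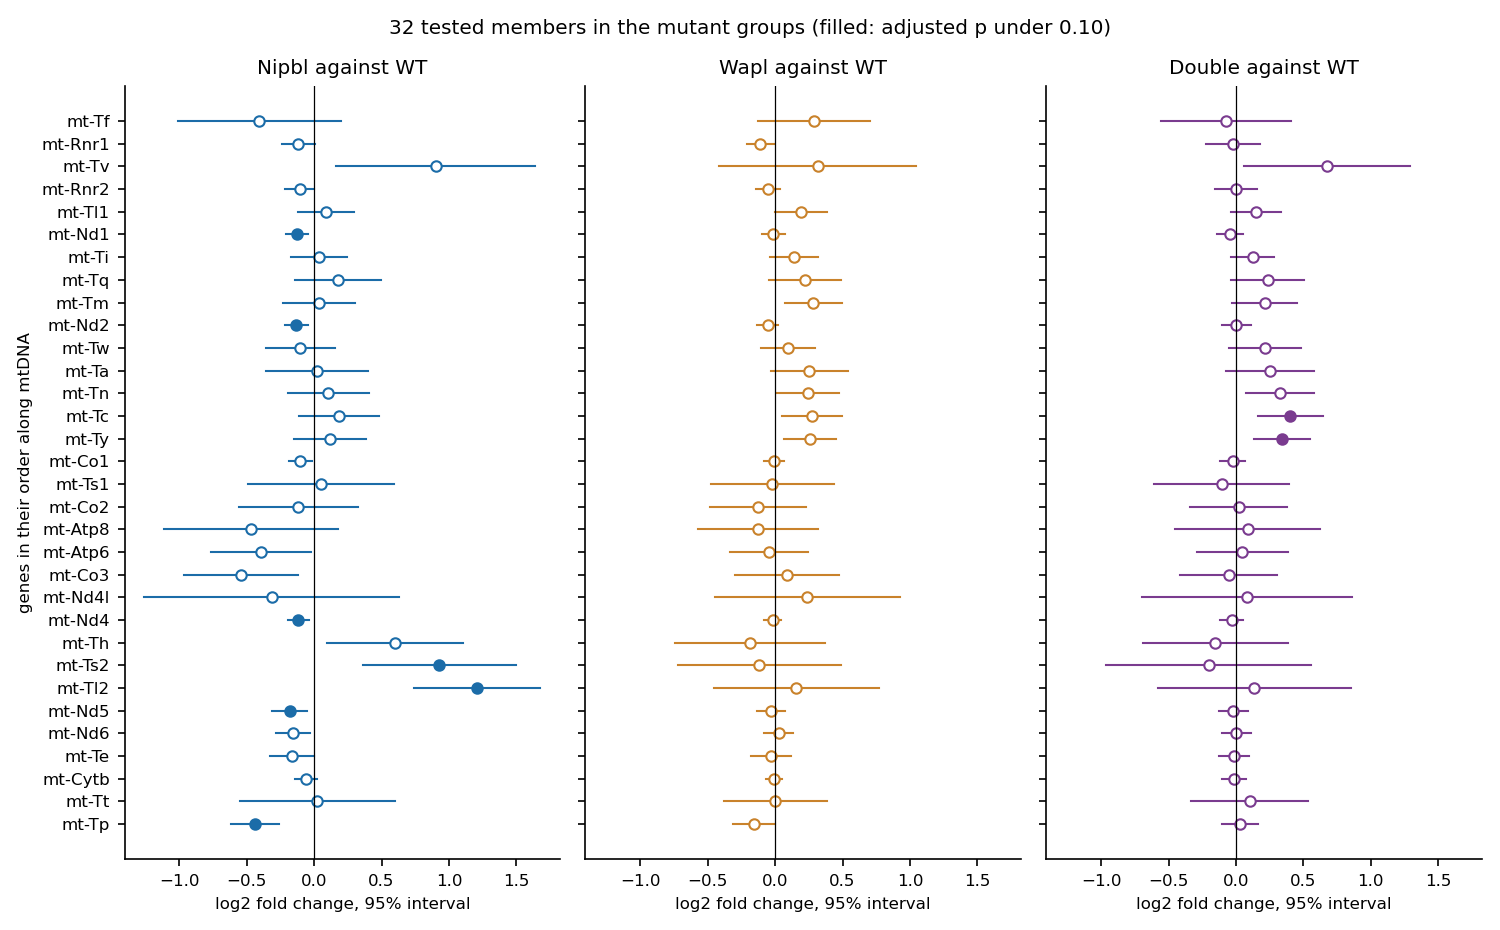
Log2 fold change against WT with its 95% interval for 32 tested members in their order along mtDNA, in the 3 mutant groups, which share the WT libraries (mt-Tg, mt-Nd3 and mt-Tr are left out). Filled points passed an adjusted p of 0.10, and they are 7 members in Nipbl, 0 in Wapl and 2 in Double.

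Double heterozygotes were also set against each single mutant. Against Nipbl +/- brains 0 of 35 members were called by edgeR, where 0.00655% of all genes were, although 11 members had an unadjusted p under 0.05 (4.12% of all tested genes did) and DESeq2 called 1, mt-Tp. mt-Tg and mt-Nd3, which differ between the sets of libraries, were among the 11. All 13 protein genes had a higher fitted level there, with a median log2 difference of 0.15. Of these 13, 6 lie in the stretch with almost no counts, mt-Nd3 among them. The 9 members above 100 CPM had log2 differences between 0.03 and 0.15, with a median of 0.09. The Nipbl +/- libraries are the same ones that were set against WT. Against Wapl Δ/+ brains 0 members were called by edgeR and by DESeq2, where edgeR called 1.02% of all genes, and 1 member had an unadjusted p under 0.05 (9.94% of all tested genes did). The interaction of the genotypes called 0 members and 0% of all genes by edgeR. The member with the smallest p was mt-Tp (log2 0.59, SE 0.123, adjusted p = 0.200 by edgeR). DESeq2 called 793 genes for the interaction, 0 of them members.

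The nuclear genes that serve the same complexes had few calls in the 3 mutant groups. Of 80 nuclear subunit genes of the respiratory chain and ATP synthase, 1 was called in Nipbl +/- brains (1.25%), where 11.2% of all tested genes were. It was Atp5md, a small ATP synthase subunit (log2 fold change -0.14, adjusted p = 0.0570 by edgeR). None of the 80 was called in Wapl Δ/+ or double-heterozygote brains, where 2.22% and 3.28% of all tested genes were. A higher fitted level was found for 27 of the 80 in Nipbl +/-, 60 in Wapl Δ/+ and 64 in double-heterozygote brains. Median log2 fold changes were -0.02, 0.04 and 0.03, against -0.009, -0.003 and 0.0007 for all tested genes. By complex in Nipbl +/- brains, the nuclear genes of complex I had 0 of 37 called, complex II 0 of 4, complex III 0 of 9, complex IV 0 of 12 and the ATP synthase 1 of 18. Mitochondrial ribosomal proteins had 2 of 78 called there (2.56%), with Mrps34 higher (0.16) and Mrpl19 lower (-0.16).

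Among 37 factors that copy, transcribe, process or regulate mtDNA, 3 were called in Nipbl +/- brains (8.11%, below the 11.2% of all genes). Ppargc1a, a coactivator of mitochondrial biogenesis, was lower (log2 fold change -0.42, adjusted p = 0.000602 by edgeR). Esrra, a nuclear receptor that acts with it, was higher (0.19, adjusted p = 0.0232), as was Nrf1, a transcription factor of respiratory chain genes (0.13, adjusted p = 0.0757). Nrf1 was also the only 1 of the 37 called in double heterozygotes (0.14, adjusted p = 0.0607 by edgeR). That is 2.70%, where 3.28% of all tested genes were called. Of 17 mitochondrial tRNA synthetases, 1 was called in Nipbl +/- brains (5.88%) and 0 in the other mutant groups. It was Mars2, which charges the methionine tRNA (-0.27, adjusted p = 0.0267 by edgeR).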

How the data were processed

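The deposited table holds raw counts of reads on genes, not normalized, for 21 libraries. The authors took paired-end reads of 101 bases, trimmed them (cutAdapt 2.4), aligned them to mm10 (GRCm38.p6; STAR 2.5.3a) and assigned them to genes (featureCounts, Subread 1.6.4). The annotation release, the strand setting and the treatment of reads that map to several places are not given in the sources used here. The authors excluded a further Nipbl +/- library, not analysed here. Groups came from the sample labels.

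A gene was tested where its TMM-normalized counts summed to at least 10 over all libraries, which 30552 genes did. Each comparison was fitted on its own libraries with the quasi-likelihood test of edgeR 4.0.16 in R 4.3.3, with Benjamini-Hochberg adjustment over all tested genes and a threshold of 0.10. The interaction was fitted on all 4 groups. P-values set a difference between groups against the spread between these libraries, whose litters are not known. On simulated counts the fit was tested for recovery of known changes. The simulation changed only well-counted genes, by a fixed fold and at a fixed spread. It does not cover the small changes or low counts reported here. Standard errors were taken as the log2 fold change over the root of the F statistic, and ratios of low counts carry exact counting intervals.

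The members and the lists of nuclear genes and markers were chosen with earlier results of these data known. Every member is accounted for by class. Values per library, or ranges in the larger groups, are given for mt-Nd3, the rRNA genes and the most and least abundant of each class. Called members have values at least in the groups of the comparison that called them. Beside them stand the 7 pseudogenes and the called genes of the other lists with the largest change. Coordinates are from a RefSeq table for GRCm38.p6. The alternatives were DESeq2 1.42.0, its size factors in edgeR, scaling without the mitochondrial genes, a filter at 1 count, filterByExpr, a threshold of 0.05, the replicate number as a block, a fit of all groups, subsets by allele order or by a low mt-Nd3 count (under 20), and leaving out each library.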

Additional observations from a re-analysis of the deposited data

Results flagged for a closer look

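Within each group of 4 to 10 libraries, single libraries that stood far from the others were sought by Dixon's 95% criterion for 18 members. Of 54 groups, 7 held one. The criterion flags about 1 in 20 groups of independent normal values. The groups examined here share libraries and neighbouring genes, so their count cannot be set against that rate. In Wapl Δ/+ replicate 5, the library with the lowest total count, mt-Nd1 had 1746 CPM (next lowest 1987) and mt-Co1 had 4843 CPM (next lowest 5373). In WT replicate 1 mt-Tc had 6.85 CPM (next 4.78), the library that overlaps the double heterozygotes at this gene. In double-heterozygote replicate 2 mt-Ts2 had 2.60 CPM (next 0.908) and mt-Tl2 had 2.88 CPM (next 0.878), and in replicate 5 mt-Tp had 14.0 CPM (next 12.1). mt-Tk had its 1 count, 0.0309 CPM, in double-heterozygote replicate 1. With the rest of the group at 0, a single count is always flagged. Causes were not tested.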

How the results depend on the processing

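No called member reversed its direction in an alternative that gave it a value, though mt-Tg in Nipbl +/- against WT had a fold change of about 0 with the replicate block. Members that were not called were not followed gene by gene. The counts of called members moved as follows. In Nipbl +/- against WT the 9 called members became 3 at a threshold of 0.05, 4 with the replicate number as a block, 2 in one fit of all groups and 2 with only the libraries low in mt-Nd3, and ranged from 3 to 12 when each library was left out. mt-Tl2 and mt-Tp were called in all of these. In Wapl Δ/+ against WT the count of 0 became 1 with DESeq2, 2 with the replicate block and 3 with only libraries whose deletion is written first (0 to 1 when each library was left out). In double heterozygotes against WT the 2 became 0 at 0.05, 0 with only libraries whose deletion is written second and 0 with only the libraries low in mt-Nd3 (0 to 3 when each was left out). Against Nipbl +/- the 0 became 1 with DESeq2 and 2 (mt-Tg and mt-Nd3) with the deletion written second (0 to 1 when each was left out); against Wapl Δ/+ it stayed at 0 in all alternatives. The interaction gave 0 to 1, mt-Tp when either Wapl Δ/+ replicate 2 or double-heterozygote replicate 6 was left out. The 3 members called for allele order stayed 3 when each library was left out. They were 2, without mt-Tr, in 5 alternatives: DESeq2, filterByExpr, the replicate block (2) and the Wapl Δ/+ or the double-heterozygote libraries alone. mt-Tr had a value in 20 alternatives and lost its call in 3 of them, so not all of these 5 gave it a value. The cause of these shifts was not tested. Correlations of same-numbered libraries' deviations from their group means ran from -0.272 to 0.360, and in no comparison was every pair above 0.1. For double heterozygotes against Nipbl +/- brains all 3 pairs were positive (0.0172 to 0.353), and 2 matched best with their own number. The pairs are few, and whether same-numbered libraries shared a litter was not tested. The count under the replicate block was 2 for double heterozygotes against WT. Fits on libraries low in mt-Nd3 give no value for mt-Nd3, mt-Tg and mt-Tr. Low counts limit what could be called among the 9 tested members in the stretch and at mt-Th, mt-Ts2 and mt-Tl2.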
